A study of Oryza sativa with 200 samples.

Results

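Among the genes read in rice leaves, 165 loci differed between inbred lines, and most lines that were low or high in 2022 were so again in 2023. In 152 of them the levels fell into 2 or more separate modes in both years. The 165 loci were chosen on these measurements by 3 limits. The mean over all 200 libraries had to be at least 10 CPM, the usual depth-scaled unit in which the count of a gene is divided by the total count of its library. Pearson's r of log2(CPM + 0.5) between 2022 and 2023 over 100 lines had to be at least 0.8, and fewer than 10 lines in each year could lie under 0.2 CPM. Of 37849 listed loci, 10235 reached the mean level. Of those with the r, 67 were left out for having 10 or more lines under 0.2 CPM, and 3 of the remaining 168 (Os02g0618200, Os07g0605200 and Os03g0122600) were excluded by name. The 165 genes make up 1.61% of the loci at the mean level. Their r, level, spread between lines and the return of lines to the same side were used in the choice or follow from it. They are described here with no test. Modes were fitted to the 165 genes only, so the count of 152 has no share over other loci beside it.

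The lines belong to JAM2, a MAGIC population (multi-parent advanced generation inter-cross), with Toyomeki, Tachiharuka, Iwaidawara and Akidawara as its parent varieties. All lines carried mixtures of these 4 genomes and all plots were given the same chemical fertilizer, with 56 kg of nitrogen per ha. Plots held 33 plants of a line and were not replicated, so the difference between lines includes that between plots. The groups are the F5 generation, sampled on 1 July 2022, and the F6 generation, sampled on 29 June 2023, with 100 libraries each. A leaf was taken from each line in the morning, between 9:00 and 11:00, at 6 weeks from transplanting, and gave 1 library. The parental varieties were not analysed here, so no mode is assigned to a parent.

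In a population of this kind each line fixes a mosaic of parental chromosome segments. A variant in or beside a gene that alters its transcription divides the lines into those that carry it and those that do not. Genes lying close together on a chromosome are usually inherited as a block, because few crossovers fall between them. A level that depends on such a variant recurs when the same line is grown again, whereas a level set by weather, hour or development need not. These statements are background, and genotypes were not used here.

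Library totals ran from 3254834 to 37774023 counts in 2022 (median 7768777) and from 3729294 to 16881699 in 2023 (median 11272411). In the shallowest library 3 counts correspond to 0.922 CPM, so differences among low lines of a gene at or under that level were not resolved there. The leaf label was checked against markers. The medians in 2022 of the Rubisco small subunit genes RBCS2, RBCS3 and RBCS4 were 6565, 6094 and 2565 CPM, against 16.7 CPM for the root silicon transporter gene LSI1 and 1.34 CPM for the flower gene OsMADS1. In some lines OsMADS1 and the florigen gene Hd3a were higher, with at most 28.9 and 82.7 CPM in 2022. No gene of the set followed any of 9 marker genes at an absolute r of 0.7 in both cross-year directions, apart from Os02g0805500. It ran against PCNA (Os02g0805200), the DNA replication clamp gene close to it in the numbering, with r of −0.747 and −0.731 over 100 lines. In bulk leaf RNA, fewer cells of a type and less RNA per cell cannot be told apart.

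The 165 genes had a median r of 0.881 between the years, from 0.801 to 0.991, and 63 of them reached 0.9. The median over all loci at the mean level was 0.142. The order of the lines by rank recurred less: Spearman's rho between the years ran from 0.146 in Os03g0355300 to 0.905, and 39 of the 165 genes meet the limit of 0.8 by rho. Levels were moderate, with a median of 27.0 CPM and a range from 10.04 to 488 CPM, and 127 genes had a mean under 50 CPM. The SD between lines had a median of 0.77 in 2022 and 0.80 in 2023 on the log2(CPM + 0.5) scale, against 0.24 and 0.23 over all loci at the mean level. In 151 of the genes no line was under 0.2 CPM in either year. Just inside the limit of 0.8 lay Os05g0404200, Os11g0186200, Os07g0180300, Os01g0664500 and Os02g0823400, with r from 0.801 to 0.809. Just outside it lay Os04g0439400, Os07g0434500, Os02g0147200, Os07g0153300 and Os08g0220600, with r from 0.795 to 0.799.

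None of the 165 locus identifiers is paired with a gene name in the reference table used, so the genes are given by locus, and their products are not described. The first digits of a locus give its chromosome. The highest r, 0.991, belonged to Os12g0459300 on chromosome 12. In 2022 its level was at most 2.46 CPM in 51 lines, with a median of 0.960 CPM, and lay between 100 and 347 CPM in the other 49, with a median of 238 CPM. The next year 51 lines were at or under 2.12 CPM and 49 lines lay between 114 and 333 CPM. The low lines were the same 51 in both years, and no line was found between 2.46 and 100 CPM in 2022. Although the low lines were near the limit of detection, fewer than 10 of them were under 0.2 CPM, which kept the gene in the set.

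Os03g0852900 had an r of 0.986. In 2022, 26 lines lay between 1.90 and 6.97 CPM (median 4.35) and 74 lines between 26.9 and 66.0 CPM (median 51.3), and in 2023 the same 26 lines lay between 0.938 and 4.94 CPM. The groups of lines did not overlap in either year, and all 100 lines kept their side. Os03g0732200, with an r of 0.983, was low in 15 lines, between 0.130 and 1.84 CPM in 2022, and lay between 27.7 and 72.9 CPM in the other 85. Again all 100 lines kept their side. Os10g0498300, also at 0.983, was divided nearly evenly, with 54 lines from 3.33 to 9.85 CPM and 46 lines from 28.5 to 64.4 CPM in 2022. The same division was seen in 2023, with 54 lines at a median of 6.71 CPM and 46 at a median of 60.3 CPM. In Os04g0439300 (r = 0.974) the larger group was the low one, with 70 lines at a median of 14.3 CPM and 30 lines at a median of 100 CPM in 2022. The other 5 of the 10 highest r belonged to Os07g0289600, Os04g0626500, Os01g0369600, Os07g0442000 and Os11g0562100, from 0.965 to 0.969, and all 5 stood in linked groups that are described below by chromosome.

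**Figure D1:**
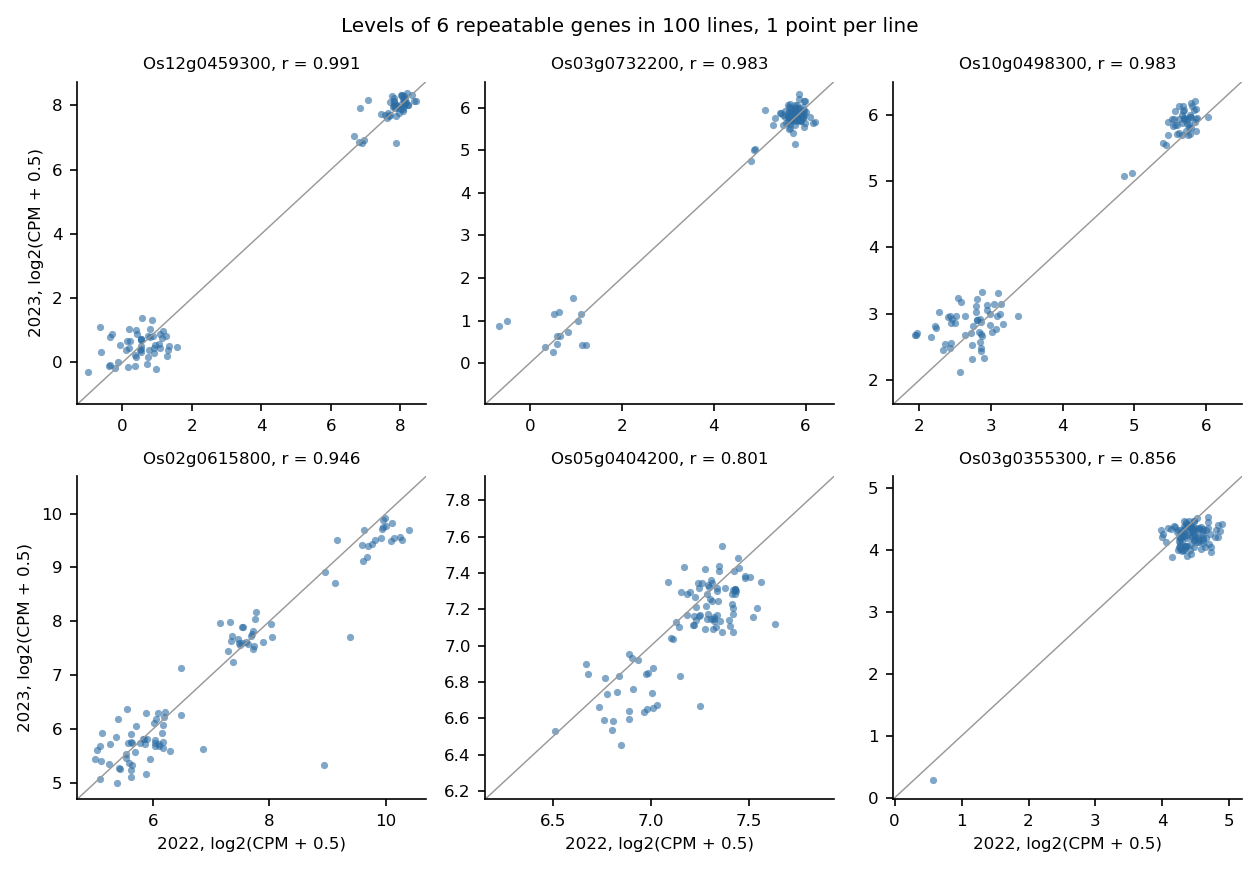
Levels of 6 genes in 100 lines, with log2(CPM + 0.5) in 2022 on the horizontal and in 2023 on the vertical axis, 1 point per line and the diagonal as a grey line. Os12g0459300, Os03g0732200 and Os10g0498300 form 2 separate clouds, Os02g0615800 forms 3, Os05g0404200 at the limit of r lies in clouds that nearly touch, and the r of Os03g0355300 rests on 1 line.

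Whether levels fell into separate classes was described with a mixture of normal distributions per gene and year. A mode is counted here where its mean lies at least 3 within-mode SD from the next and it holds at least 5 lines. In 152 of the 165 genes 2 or more modes were resolved in both years. Modes were not fitted to the other loci at the mean level, so no background share can be given. There were 2 modes in both years in 135 genes and 3 in both years in 3 genes, and in 14 the number differed between the years but was above 1. In 8 genes only 1 mode was resolved in 1 of the years, which was 2022 in 7 of them. In 5 genes, Os01g0595600, Os01g0785300, Os03g0355300, Os03g0654800 and Os07g0598300, only 1 mode was resolved in either year. Since modes were cut from the levels themselves, the difference between them is given with no test.

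Lines mostly stayed in their mode, which follows in large part from the choice of genes by r between these years. Over the 135 genes with 2 modes in both years, the number of lines found in the same mode had a median of 98 of 100 and was at least 87. In 22 genes all 100 lines were in the same mode, in 118 genes at least 95 were, and in 3 fewer than 90 were. The smaller mode was the low one in 90 genes and the high one in 45 in 2022. Its size was not spread evenly over the genes. The ranges used here differ in width, and genes of a linked group share much of their division of lines. The counts are thus not independent. It held 20 to 34 lines in 72 genes and 45 to 50 lines in 25, but 35 to 44 lines in only 17. It held 15 to 19 lines in 14 genes and 5 to 14 lines in 7. The corresponding numbers in 2023 were 74, 25, 16, 15 and 5. The most even division in 2022, 51 lines against 49, was shared by 7 genes. Os01g0863166, Os02g0621800 and Os12g0601800 had 51 low lines, and Os01g0960500, Os04g0394500, Os11g0703100 and Os12g0601200 had 49. The smallest modes were those of Os12g0118800, with 8 low lines, and Os11g0103000, with 9.

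The step between the modes was mostly small. The means of the 2 modes differed by a median of 3.01-fold in 2022 and 3.27-fold in 2023, with ranges from 1.29 to 48.5 and from 1.31 to 39.3. These folds are on the log2(CPM + 0.5) scale, which understates the fold of a gene with a low mode near 0. The fold was under 2 in 33 genes, from 2 to 4 in 56, from 4 to 10 in 35 and 10 or more in 11 in 2022. At the small end stood Os04g0119500, the most abundant gene of the set. It lay between 389.3 and 509 CPM in 64 lines and between 522 and 644 CPM in 36 lines in 2022, and 99 lines kept their side.

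**Figure D2:**
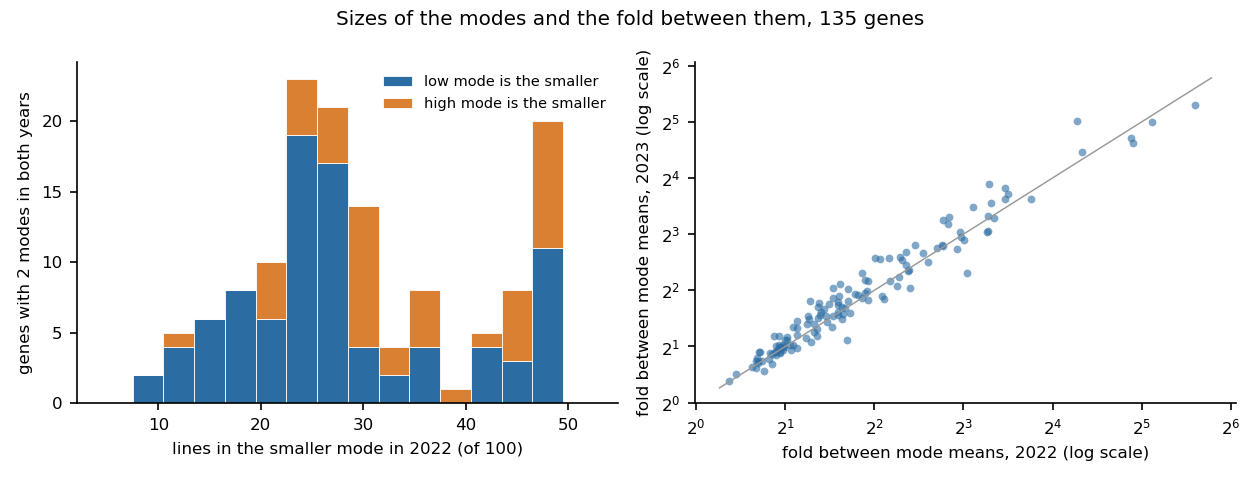
Left, the number of lines in the smaller of 2 modes in 2022 (horizontal, of 100 lines) against the number of genes (vertical), for the 135 genes with 2 modes in both years, coloured by whether the low or the high mode is the smaller. Right, the fold between the mode means in 2022 and 2023 on log axes, 1 point per gene with the diagonal in grey; the median is 3.01 in 2022 and 3.27 in 2023.

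Over all genes with at least 2 modes in both years, the widest step from the lowest to the highest mode in 2022 was that of Os12g0459300, 297-fold on the log2(CPM + 0.5) scale. Its lines were resolved into 4 modes in that year, and this step runs from 13 lines at a mean of 0.342 CPM, under the level of 3 counts in the shallowest library, to 43 lines at 252.2 CPM. Between its 2 modes of 2023 the step was 169-fold. Os12g0448900, also on chromosome 12, followed with 71.7-fold, from a mean of 1.52 CPM in 71 lines to 124 CPM in 29 lines. In 2023 its lines were resolved into 48 at a mean of 0.783 CPM, 25 at 5.26 CPM and 27 at 185 CPM. Among the genes with 2 modes in both years the largest step was that of Os02g0825600 on chromosome 2, 48.5-fold in 2022 and 39.3-fold in 2023. It lay between 0 and 5.85 CPM in 48 lines in 2022 (median 1.06) and between 29.1 and 91.3 CPM in 52 lines (median 72.6). Although its low lines included some with no count, 99 lines kept their side in the next year. Os11g0103000 was between 0 and 0.409 CPM in 9 lines and between 8.12 and 30.0 CPM in 91 lines in 2022, and the same 9 lines were low in 2023, at 0.770 CPM or less. Its low lines were thus under the level of 3 counts in the shallowest library. Os11g0562100 was between 0.295 and 3.47 CPM in 25 lines and between 29.4 and 87.8 CPM in 75 lines, and all 100 lines kept their side. The step of Os03g0732200 was 34.8-fold, that of Os07g0486000 29.8-fold, that of Os02g0615500 23.6-fold, that of Os01g0369600 20.04-fold and that of Os08g0265000 19.3-fold in 2022. Smaller steps with the high mode in the minority also occurred, as in Os11g0708000, with an 11.3-fold step, where 25 lines lay between 34.4 and 84.2 CPM and 75 lines between 2.17 and 8.97 CPM.

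Os02g0615800, Os03g0226400 and Os12g0637300 had 3 modes in both years, and Os07g0486000 had 4 in 2022 and 3 in 2023. Os07g0486000 was at means of 0.636, 1.95, 17.3 and 34.2 CPM in 22, 30, 13 and 35 lines in 2022, and at 0.623, 2.60 and 29.8 CPM in 29, 26 and 45 lines in 2023. Its lower modes lie near the level of 3 counts in the shallower libraries. Os02g0615800 was between 31.4 and 89.0 CPM in 51 lines, between 116 and 263 CPM in 25 and between 493 and 1346 CPM in 24 in 2022. The classes held 52, 26 and 22 lines in 2023, at medians of 52.4, 205.96 and 740 CPM, and 96 lines were in the same class. In Os03g0226400 the classes were nearly equal in number, with 30 lines at a median of 11.3 CPM, 31 at 51.1 CPM and 39 at 116 CPM in 2022, and 94 lines were in the same class in 2023. Its middle and high classes nearly met, with the middle class ending at 73.8 CPM and the high class starting at 77.4 CPM. Os12g0637300 had 13 lines at a median of 4.74 CPM, 40 at 17.6 CPM and 47 at 31.5 CPM, and 90 lines were in the same class. Here too the upper classes met, at 23.3 and 24.7 CPM, whereas the low class ended at 7.35 CPM, clear of the middle class, which started at 12.2 CPM.

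The next listed locus before Os02g0615800 that belongs to the set, Os02g0615500, showed how neighbours can differ. Over 100 lines the r between them was 0.067 in 2022 and 0.026 in 2023. Yet the classes were tied to each other. Os02g0615500 was high in 26 lines in 2022, between 45.6 and 254 CPM, and 25 of those lines made up the middle class of Os02g0615800. The other line was in the low class. Of the 74 lines with low Os02g0615500, 50 were in the low and 24 in the high class of Os02g0615800. In 2023 Os02g0615500 had 3 modes, and the 25 lines of its highest mode were all in the middle class of Os02g0615800. In 2022 the pair divided the lines into joint classes of 50, 25 and 24 lines, with 1 line outside them.

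Not every high r came from a division of the lines. Os03g0355300 had an r of 0.856, and line J2_252 was at 0.990 CPM in 2022 and at 0.714 CPM in 2023. The other 99 lines lay between 15.3 and 29.1 CPM in 2022 and between 14.2 and 22.7 CPM in 2023, and without 2 lines the r was 0.10. When the 2 lines farthest from the median of each gene were left out, 8 of the 165 genes were under 0.8, and this gene was the only 1 under 0.6. Os03g0654800 had 3 lines under 1 CPM in 2022 and 4 in 2023, of which 3 were the same. Its highest level was 43.7 CPM in 2022, with 18 lines at 25 CPM or more, and its r was 0.911. Without the 2 lines farthest from its median the r of Os03g0654800 was 0.866, and its rho over all lines was 0.905.

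The genes lay on all 12 chromosomes but not in proportion to the loci there. Chromosome 11 held 21 genes, 4.61% of its 456 loci at the mean level, and chromosome 7 held 25, or 3.13%. The share was 2.31% on chromosome 12, 1.92% on chromosome 6, 1.87% on chromosome 1, 1.74% on chromosome 4 and 1.56% on chromosome 2. It was 1.05% on chromosome 5 and 0.869% on chromosome 3. The lowest shares were 0.593% on chromosome 8, 0.577% on chromosome 10 and 0.182% on chromosome 9, where Os09g0268100 was the only gene of the set among 550 loci at the mean level. These shares are counts of chosen genes, which lie in blocks, and were not tested.

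**Figure D3:**
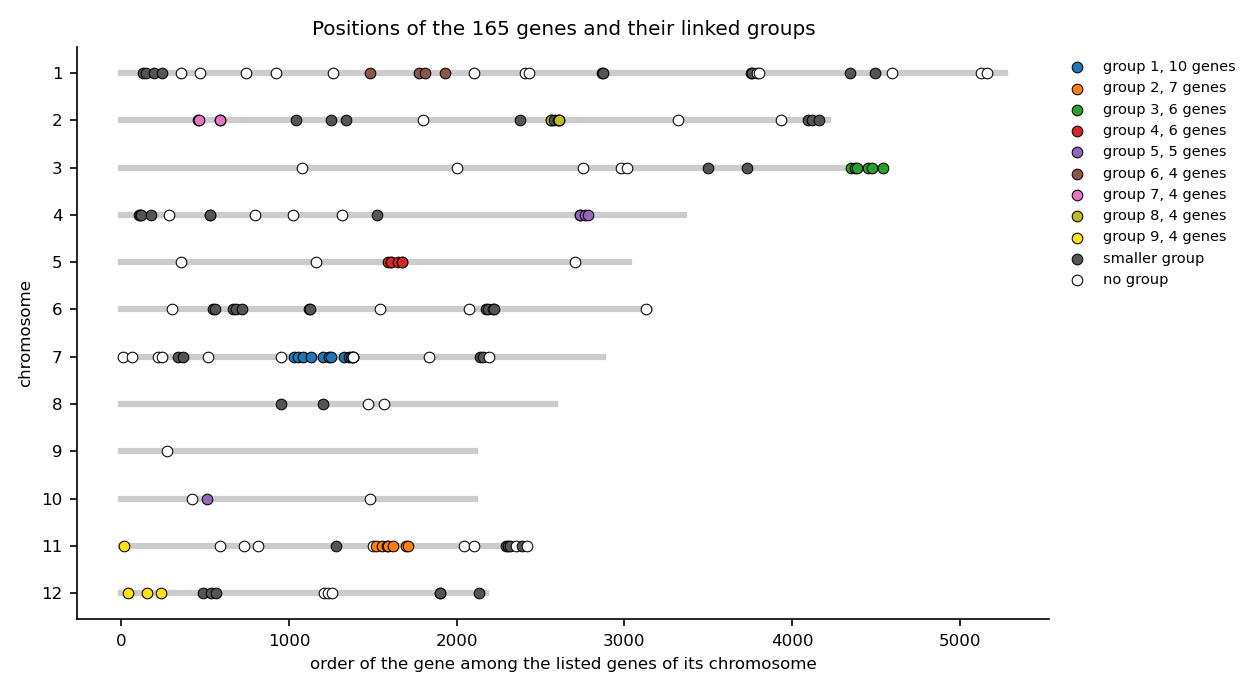
Position of the 165 genes, as the order of each locus among the listed loci of its chromosome (horizontal) on the 12 chromosomes (vertical), with grey bars for the extent of the listed loci. Colours mark the 9 linked groups of at least 4 genes, grey points smaller groups and white points genes in no group; the largest group, of 10 genes, lies on chromosome 7.

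Pairs of genes were joined where the level of the first gene in 2022 followed the level of the second in 2023, and the reverse, with an absolute r of at least 0.7 over the 100 lines in both. The values of such an r never come from the same library. Of 13530 pairs, 127 were joined, 83 in the same direction and 44 in opposite directions, and 119 of them lay on the same chromosome. They tied 106 genes into 34 groups, of which 19 had 2 genes, 6 had 3 and 9 had at least 4, and left 59 genes in no group. With Spearman's rho in place of r, 18 genes were tied into 7 groups. Distance along the chromosome, counted in listed loci, went with the joining. Among 109 pairs at most 50 loci apart the median absolute r was 0.772, and 57.8% were joined. Among 144 pairs 51 to 200 loci apart the median was 0.637 and 35.4% were joined, and among 168 pairs farther apart, up to 500 loci, the values were 0.208 and 2.98%. No pair farther apart on the same chromosome was joined, and the highest r among the 689 pairs more than 1000 loci apart was 0.363. On different chromosomes 8 of 12080 pairs were joined, which is 0.0662%.

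**Figure D4:**
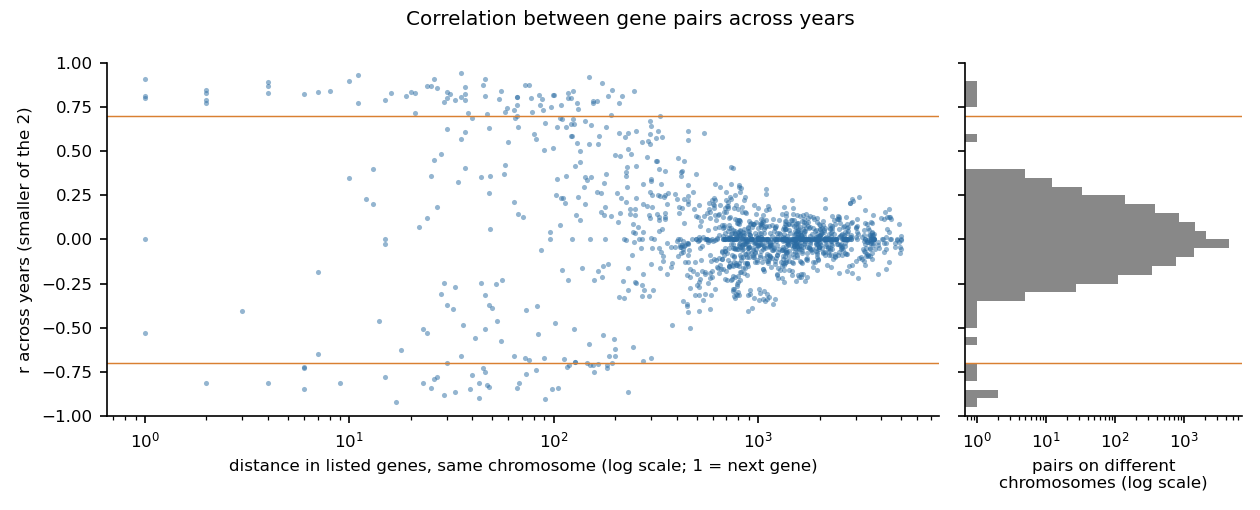
The r between genes across years, the smaller in size of the 2 directions and set to 0 where their signs differ, for pairs on the same chromosome against their distance in listed loci on a log axis (left) and for pairs on different chromosomes as a histogram with a log axis (right). Orange lines mark 0.7 and −0.7; both signs occur at short distance, and values narrow toward 0 beyond 500 loci.

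Near neighbours were not always alike. Of 5 pairs of members that follow each other directly in the list, 3 ran together. Os05g0414501 and Os05g0414600 had an r of 0.958 in 2022, Os02g0169800 and Os02g0169900 of 0.866, and Os04g0244400 and Os04g0244500 of 0.851. Os07g0486000 and Os07g0486100 ran against each other, with r of −0.535 and −0.604, and Os02g0615500 and Os02g0615800 had an r near 0, as described above. Reads from overlapping or adjacent loci can be counted for either, and the use of strand in counting is not given in the sources used here, so values of such neighbours are uncertain.

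The largest group held 10 genes of chromosome 7, from Os07g0289600 to Os07g0484600, across 339 listed loci. A minority of the lines, 24 to 29 by gene in 2022, was low in each of 9 genes and high in Os07g0475000, though not the same lines throughout. Os07g0289600 lay between 0 and 3.68 CPM in 25 lines and between 7.76 and 26.7 CPM in 75 lines in 2022, and 99 lines kept their side. Os07g0442000 had the widest step of the group, with means of 5.20 CPM in 24 lines and 86.4 CPM in 70 lines in 2022. Os07g0475000 went the other way, with 71 lines between 20.8 and 58.0 CPM and 29 lines between 64.3 and 145 CPM. The last gene, Os07g0484600, differed by 1.87-fold. In 78 lines in 2022 and 81 lines in 2023 all genes of the group with 2 modes in both years were on matching sides, and in the remaining lines at least 1 of them was on the other side. The joined pairs had a median absolute r of 0.818, and the lowest absolute r of any pair in the group was 0.468.

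**Figure D5:**
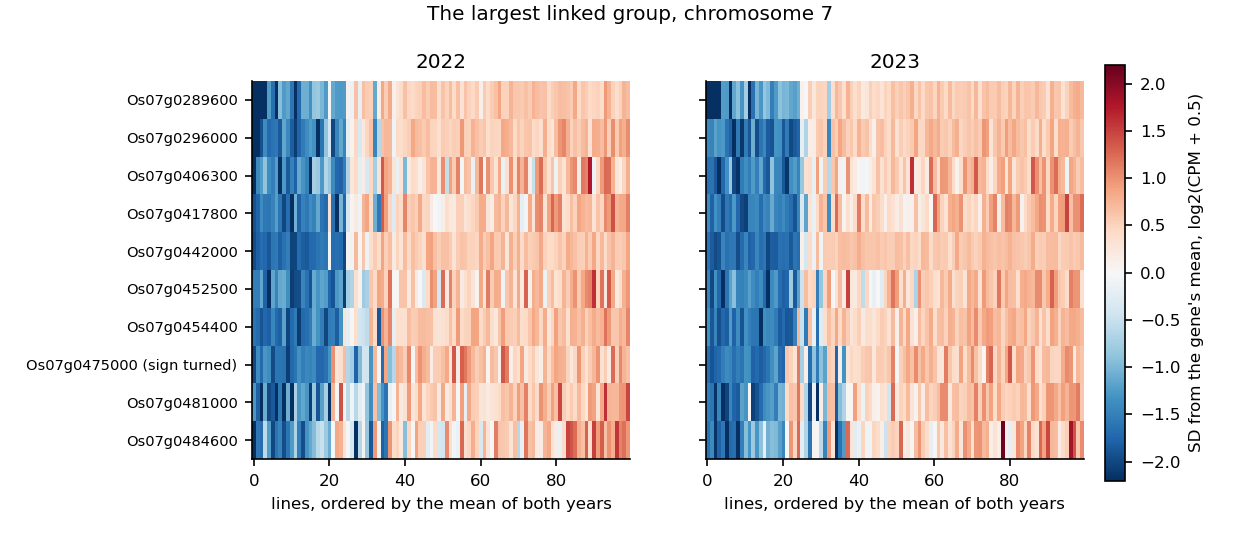
The 10 genes of the chromosome 7 group (rows, in the order of the list) in 100 lines (columns, ordered by the mean over genes and years) in 2022 and 2023, coloured by the distance in SD of log2(CPM + 0.5) from the mean of the gene. Os07g0475000 is drawn with its sign turned. Lines low in most of the genes stand at the left, and not all of them are low throughout. Of the 24 lines in the low mode of Os07g0442000 in 2022, 20 were in the high mode of Os07g0475000.

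Several lines of that group lay between the modes. Os07g0442000 had a middle mode of 6 lines in 2022 at a mean of 43.5 CPM, and Os07g0454400 had 1 of 6 lines at 46.0 CPM. Of these lines 5 were the same. In 2023 neither gene had a middle mode. Line J2_204, which was in both, was at 38.5 CPM in Os07g0442000 in 2022 and at 22.7 CPM in 2023. In 2022 its level in CPM was between 25% and 75% of the way from the low to the high mode mean in 8 of the 10 genes, and in 2023 in 3 of them.

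On chromosome 11 a group of 7 genes reached from Os11g0525200 to Os11g0562100 over 193 listed loci. The first 3 of them ran against the other 4. Os11g0525200 was at a mean of 28.6 CPM in 70 lines and 57.1 CPM in 30 lines in 2022, while Os11g0562100, at the other end, was low in 25 lines. Os11g0545300 was at a mean of 10.3 CPM in 26 lines and 141 CPM in 68 lines, with 6 lines between at 69.5 CPM. In 86 lines in 2022 and 88 lines in 2023 the sides of its 2-mode genes matched.

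The chromosome 3 group of 6 genes lay near the end of the list, from Os03g0836600 to Os03g0861700, across 190 loci. Os03g0852900, described above, was its most repeatable gene. Os03g0836600 was at a mean of 1.26 CPM in 28 lines and 17.5 CPM in 72 lines in 2022, and Os03g0839900 and Os03g0841100 ran against the other 4 genes. The steps of the opposite genes were 2.13-fold and 2.38-fold in 2022, between the 1.70-fold of Os03g0850600 and the 11.0-fold of Os03g0836600. Os03g0861700 had only 1 mode in 2022 and 2 in 2023, of 23 lines at a mean of 32.2 CPM and 77 lines at 53.9 CPM. On chromosome 5 all 6 genes from Os05g0400800 to Os05g0414600, over 86 loci, ran in the same direction and were low in 26 to 31 lines in 2022. Os05g0414501 was between 4.78 and 12.6 CPM in 27 lines and between 25.7 and 74.1 CPM in 73 lines, and all 100 lines kept their side. Os05g0400800, at the start, was at a mean of 9.02 CPM in 29 lines and 24.2 CPM in 71. Within the same group the step was 1.37-fold in Os05g0404200 and 6.08-fold in Os05g0414600.

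A group of 4 genes on chromosome 1, from Os01g0299500 to Os01g0502800, was the most extended, with 453 listed loci from the first to the last. It had 16 to 18 low lines in 2022 by gene. Os01g0369600 lay between 0.276 and 0.971 CPM in 16 of them and between 6.44 and 28.0 CPM in the other 84 lines. Os01g0502800 lay between 4.06 and 10.3 CPM in 17 lines and between 13.7 and 30.7 CPM in 83. On chromosome 2, Os02g0154600, Os02g0155900, Os02g0169800 and Os02g0169900 ran together, and all 100 lines kept their side in Os02g0154600, with 18 lines at a mean of 1.43 CPM and 82 at 18.6 CPM in 2022. A second group of chromosome 2 joined Os02g0615800 to Os02g0621600, Os02g0621800 and Os02g0622100, which all ran against it. The pair Os03g0732200 and Os03g0762000, 232 loci apart, also ran in opposite directions, with 15 lines low in the first gene and 20 lines high in the second, at a mean of 43.0 CPM.

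Groups that crossed chromosomes numbered 4. The largest joined Os10g0198333 on chromosome 10 to Os04g0620950, Os04g0621500, Os04g0625000 and Os04g0626500 on chromosome 4. Os04g0626500 lay between 4.58 and 9.96 CPM in 25 lines and between 30.0 and 65.7 CPM in 75 lines in 2022, and the same 25 lines were low in 2023. Os10g0198333 lay between 24.4 and 48.7 CPM in 72 lines and between 51.6 and 78.5 CPM in 28. All 25 lines with low Os04g0626500 were high in Os10g0198333, and in 2023 those 25 were the only ones. The r between the 2 genes across years was −0.926 and −0.925, against a lowest absolute r of 0.807 between any pair of the group. Whether the reads counted for Os10g0198333 come from chromosome 10 was not tested, so its level and its link to chromosome 4 are uncertain. Within chromosome 4, Os04g0620950 and Os04g0625000 were higher in the lines in which Os04g0621500 and Os04g0626500 were lower.

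Os11g0103000 was joined to Os12g0105300 and Os12g0118800, at the starts of the lists of chromosomes 11 and 12, and Os12g0129700 came into the group on the chromosome 12 side. Os12g0105300 was between 141 and 309.4 CPM in 88 lines and between 357 and 927 CPM in 12 lines in 2022. Of the 9 lines low in Os11g0103000, 8 were high in Os12g0105300 in 2022 and all 9 in 2023. Os12g0118800, which ran with Os11g0103000, was between 144 and 172 CPM in 8 lines and between 237 and 452 CPM in 92. In the rice genome the first parts of these chromosomes share a duplicated block with nearly identical sequence, so a read can fit copies on both. Counting was of unique exon reads, and how reads of near-identical copies were placed cannot be followed in the tables, so the levels of these genes are uncertain.

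The other 2 groups across chromosomes were pairs with opposite directions. Os02g0225000 was between 44.1 and 69.6 CPM in 25 lines and between 80.5 and 133 CPM in 75 lines in 2022, and all 100 lines kept their side. Its r with Os04g0463600 on chromosome 4 was −0.797 and −0.760, and that gene was higher in 30 lines, between 32.5 and 55.01 CPM. Os11g0450050 was joined to Os12g0637300, which has 3 modes, with r of −0.704 and −0.754. Whether a locus of such a pair is placed where its reads come from was not tested.

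A list of 10 repeatable loci outside the set, taken from earlier results of these data, was compared with it, and 6 of them reached an absolute r of 0.7 with at least 1 gene of the set in both cross-year directions. Os03g0855700 followed Os03g0852900 with r of 0.957 and 0.955 across the years, and Os01g0780900 followed Os01g0782100 with r of 0.962 and 0.969. Os01g0350000 ran with Os01g0369600, with r of 0.888 and 0.897, and Os06g0580100 against Os06g0596300, with −0.843 and −0.892. Os11g0474100 followed Os11g0450050 with r of 0.805 and 0.827. Os03g0299700, numbered on chromosome 3, ran against Os01g0502800 on chromosome 1, with r of −0.927 and −0.893. The other 4, Os06g0226000, Os08g0122800, Os11g0696600 and Os01g0148100, did not reach it. The closest of those was Os01g0148100, with −0.678 and −0.673 against Os01g0153100. Of the loci excluded by name, Os02g0618200 ran against Os02g0615500, with −0.745 and −0.800, and the other 2 reached no absolute r of 0.7 with any gene of the set.

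A change of side between the years was rare, as the choice of genes by r would make it, and uneven over the lines. For 138 genes with the same number of modes in both years, the median line changed mode in 3 genes, and 4 lines changed in none. At the other end line J2_204 changed in 23 genes, on 8 chromosomes, and line J2_378 in 17. The other 98 lines changed in 10 or fewer. Among the 23 genes whose modes stood at least 8 within-mode SD apart in both years, levels between 25% and 75% of the distance between the mode means were found for 142 of 2300 values in 2022, which is 6.17%, and for 107 values, or 4.65%, in 2023. No value went from the low to the high part, and 1 went from high to low. Of the 142 values between the modes in 2022, 53 were still between in 2023, 84 were in the high part and 5 in the low part. In the opposite direction 53 values moved from the high part to between, and 1 from the low part. Most moves were thus between the middle and the high part. The F5 and F6 plants of a line are successive generations. The parts of segregation, of mixed seed, of expression and of the spread within the high mode in these values were not tested.

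The shift in mean level between the years did not enter the choice of the genes and was tested on all 18674 loci that passed the count filter, which included all 165. Season, generation, sampling day and set of libraries changed together between the years and cannot be told apart in this shift. By the quasi-likelihood test of edgeR, with p-values adjusted by Benjamini and Hochberg's method and a threshold of 0.05, 59 of the 165 genes changed, 33 to a higher and 26 to a lower level in 2023. Over all tested loci 71.2% changed, 34.3% higher and 36.9% lower, so the share among the 165 was below the background in this fit, whose error includes the difference between lines on which the genes were chosen. Their median absolute log2 change was 0.14, against 0.19 over all tested loci. With the line as a replicate block, which takes the difference between lines out of the error, 120 of the 165 genes changed, 60 in each direction, against 74.5% of all loci, and these included the 59. The shortfall against the background was nearly gone in the paired fit, which also estimated the error by another method. Nothing particular to the 165 genes is read from either count. With libraries scaled by their totals alone, 64 genes changed, 13 higher and 51 lower, and the median of all loci moved to −0.12 on the log2 scale. Over all 18674 tested loci 13830 changed in that fit, 3961 higher and 9869 lower. In the 30 lines with the deepest 2022 libraries 18 genes changed, against 9527 of 19357 tested loci. In the other 70 lines 56 genes changed, against 12608 of 18221 tested loci.

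A change of at least 2-fold was found in 3 of the 165 genes, against 1.54% of all tested loci. Os04g0121100 lay between 2.00 and 90.2 CPM in 2022 (median 41.5) and between 5.07 and 180 CPM in 2023 (median 79.4). It rose by 1.05 on the log2 scale with an SE of 0.17 (edgeR, BH-adjusted p = 2.25e-08) and was higher in 92 of 100 lines. Both of its modes were higher in 2023, from a mean of 7.66 to 13.7 CPM in the low and from 53.0 to 98.6 CPM in the high. Os12g0601800 rose by 1.03 with an SE of 0.24 (edgeR, BH-adjusted p = 5.63e-05) and was higher in 85 of 100 lines. Its high mode of 49 lines went from a mean of 54.8 to 105 CPM, and its low mode of 51 lines from 5.20 to 6.59 CPM, with the same lines in each. With scaling by library totals the rises of these genes were 0.94 and 0.90, and with the line as a block that of Os12g0601800 was 0.87, so 1 and 2 genes, in turn, reached 2-fold there.

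Os06g0253100 fell by 1.27 on the log2 scale with an SE of 0.16 (edgeR, BH-adjusted p = 1.43e-12) and was lower in 98 of 100 lines. It lay between 2.49 and 128 CPM in 2022 (median 50.3) and between 0.508 and 55.4 CPM in 2023 (median 18.6). The mean of its 24 low lines was 8.92 CPM in 2022 and that of its 25 low lines 1.99 CPM in 2023, and 97 lines kept their side despite the fall. Os01g0153100 fell by 0.72 with an SE of 0.08 (edgeR, BH-adjusted p = 5.09e-17) in 99 of 100 lines, from a median of 62.9 to 34.4 CPM. Its modes fell alike, from means of 28.5 and 67.5 CPM to 16.8 and 38.0 CPM.

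The order of the columns in the deposited tables was examined because it was not used to choose the genes and can carry the order of sampling or handling. Its meaning is not given in the labels. In the table of 2022, 163 of the 165 genes passed the count filter and 34 of them followed the position of the column by the same test, 16 rising and 18 falling. Over all tested loci 56.8% did, 27.5% rising and 29.2% falling. In the table of 2023, 7 of 164 genes followed the position, 3 rising and 4 falling, against 9.21% of all loci, with 3.34% rising and 5.87% falling. The median absolute log2 trend from the first to the last column was not smaller in these genes. It was 0.27 against 0.25 over all tested loci in 2022, and 0.17 against 0.10 in 2023. The error of these fits includes the difference between lines on which the genes were chosen, so nothing is read from their fewer calls. With a linear and quadratic trend over the columns taken out, the r between the years of the 165 genes had a median of 0.876 and a lowest value of 0.772, and 158 stayed at 0.8 or more.

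The positions of the lines in the 2 tables were themselves related, with r = −0.788 over 100 lines, so that the tables run through the lines in nearly opposite order. All 7 genes called in 2023 were also called in 2022, and in all 7 the sign was opposite. The genes were chosen for an r of at least 0.8 between the years. With lines in nearly opposite order, opposite trends follow from that choice and are no separate result. Os06g0604300 fell by 1.09 on the log2 scale from the first to the last column in 2022 (SE 0.18) and rose by 0.85 in 2023 (SE 0.17), and Os01g0785300 rose by 0.91 (SE 0.23) and fell by 0.79 (SE 0.23). In Os06g0253100 the level fell by 1.48 along the columns in 2022 (SE 0.33), and in 2023 the trend was 0.63 (SE 0.45) and did not pass. Line and column position cannot be told apart in these trends. In the 30 lines with the deepest 2022 libraries 1 gene was called in 2022 and 0 in 2023, with 21 and 20 genes at an unadjusted p under 0.05, and in the other 70 lines 21 and 1 were called. Over all tested loci, 1147 of 18828 were called in 2022 and 21 of 16989 in 2023 in the deepest 30. The numbers in the other 70 lines were 5535 of 16310 and 219 of 17276.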

How the data were processed

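Leaf poly(A) RNA of 100 lines was sequenced in 2022 and 2023, with stranded libraries and 1 library per line and year, per the labels. The deposited tables hold raw counts of unique exon reads per locus, per the labels, with no normalization by the authors. Per the submitters' processing notes, reads were set against IRGSP-1.0. What aligner and counter were used is not given in the sources used here. All 200 columns matched a labelled sample, and 0 pairs of libraries were identical. CPM is the count over the library total.

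Modes came from mclust 6.1.1 (equal variance, 1 to 4 components, chosen by the Bayesian information criterion). Years and column positions were tested with edgeR 4.0.16 in R 4.3.3 (filterByExpr, TMM factors, quasi-likelihood test, BH adjustment over all loci tested). DESeq2 1.42.0 was an alternative. The fit with the line as a block used the newer quasi-likelihood method of edgeR with no separate dispersion step, unlike the other edgeR fits. Only the year test without a block and the linear position test were run on simulated data first, and those data held no differences between lines. SE is the absolute log2 change over the square root of F. Line numbers pair the libraries, since each number stands for 1 line grown in both years. With 1 plot per line and year, p-values of the fits without a block measure the spread between lines. With the line as a block they measure how unevenly the lines changed between the years. Other alternatives changed the scaling, pseudocount, filter, thresholds, correlation, grouping or lines.

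The genes and lists were chosen with earlier results of these data known. Genes were named by rule: the 10 highest r, those nearest the limit of r, the ends and most repeatable gene of the 5 largest groups, the 10 widest steps, all with 3 or more modes in both years, the most even and most uneven, and the largest changes between years. Others were named after their values were seen. Locus identifiers matched no entry (0 of 165) of the reference gene table. Marker symbols come from general knowledge of rice.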

Additional observations from a re-analysis of the deposited data

How the results depend on the processing

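The count of genes that changed between the years, 59, was 120 with the line as a replicate block and 18 when only the 30 lines sequenced deepest in 2022 were used; it was 53 to 64 with another scaling, no count filter, DESeq2 or the other 70 lines. The count at 2-fold or more, 3, was 1 with scaling by totals and 2 with the block. The counts that followed column position, 34 in 2022 and 7 in 2023, were 1 and 0 in the deepest 30 and 21 and 1 in the other 70. Over all tested loci the counts for year and for position were also lower in these subsets of lines. The number of genes meeting the choice, 165, was 40 with Spearman's rank correlation, of which 39 were among the 165, and 106 genes in linked groups became 18. With other scaling, pseudocounts, limits of r or level, and subsets of lines, the first number ran from 113 to 247. The count with at least 2 modes in both years, 152, ran from 123 to 160 under its 7 alternatives, and the count in linked groups from 75 to 114 under the 5 others. Among 40 named genes no call changed direction, but calls were lost and gained: over all alternatives and genes, 21 results for year were no longer called and 17 newly called, 10 and 2 for position in 2022, and 2 and 0 for position in 2023. The r fell under 0.8 in 44 results, of which 32 were with Spearman's rho, and the number of modes in 2022 changed in 33. The causes were not tested.

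Limits are the lack of replicate plots, depth that differs up to the range given above, and that genotypes were not used here. Levels under about 0.922 CPM rest on 3 counts or fewer in the shallowest library. Leaving out replicates does not apply, since each line has 1 library a year.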

Other observations

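Genes whose number of modes differed between the years stood outside the comparison of sides. Os01g0537250 was at a mean of 5.58 CPM in 74 lines and 98.9 CPM in 26 lines in 2022. In 2023 its high mode held 25 lines at a mean of 101 CPM, and the lower lines were resolved into 8, 39 and 28 at 1.14, 3.88 and 8.91 CPM. Os10g0178500 had 1 mode in 2022, at a mean of 30.8 CPM, and 3 in 2023, with 16, 40 and 44 lines at means of 3.54, 14.3 and 50.8 CPM. Os11g0518900 had 2 modes in both years, but its low mode held 11 lines at a mean of 6.45 CPM in 2022 and 20 lines at 11.3 CPM in 2023, and 91 lines kept their side. These genes were chosen after their values were seen.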
